A study of Mus musculus with 12 samples.

Results

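The shores of CpG islands were followed in bone marrow stem and progenitor cells of mice that carry an Nras mutation, a Tet2 deletion or the combination. Autosomal CpGs with at least 10 reads in all 12 libraries, 921697 in all, were grouped into tiles of 1000 bases, and 81162 tiles held at least 3 such CpGs. A tile was taken as an unmethylated island when it had at least 20 CpGs and a mean methylation level under 10% over the 9 libraries without leukemia (10806 tiles). A shore was a tile of 3 to 19 CpGs lying 1 or 2 tiles from such an island tile. This gave 6811 shore tiles, 8.39% of the tiles tested, with 57173 CpGs and a median of 7 CpGs per tile. Of these, 5510 lay directly next to an island tile and 1301 lay 1 tile further out. The members were thus chosen by the measured level of the neighbouring tile in the groups without leukemia and by CpG numbers, so the contrast between island and shore is a description only.

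The cells were LSK cells, the bone marrow fraction without lineage markers that carries Sca1 and cKit, sorted from C57BL/6 mice with mutations conditional to blood-forming tissue, at 6 months of age. The 4 groups of 3 libraries were leukemic Tet2 knockout with Nras G12D, nonleukemic Tet2 knockout with Nras G12D, Tet2 knockout alone and Nras G12D alone. The leukemic group was read from the titles and the series design, and its libraries also carry the description TN-BMT, which the labels do not explain. The Cre driver is not stated, the sort markers cannot be read from methylation data, and wild-type cells were not analysed here, so every group carries at least 1 mutation. The labels do not say that the replicates were separate animals, and p-values therefore reflect only how far these libraries scatter. Libraries held 96300485 to 199736369 reads over listed cytosines, and the median shore tile had 527 to 1168 reads per library. In 3 libraries (Tet2 knockout replicates 1 and 2, and nonleukemic double mutant replicate 1), 251 to 360 positions of chromosome Y were read, against 2 to 18 in the other libraries. The mean chi-square per CpG between pairs of replicates was 15.2 to 24.1 among leukemic libraries, 4.84 to 5.31 among nonleukemic double mutants, 8.63 to 15.9 among Tet2 knockouts and 5.26 to 9.37 among Nras G12D libraries, so the leukemic and Tet2 knockout ranges overlapped.

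CpG islands are stretches rich in CpG, often at gene starts, that mostly stay free of DNA methylation, while most other CpGs of the mouse genome are methylated. Shores are the flanks where the level climbs, and differences in methylation between tissues and between tumour and normal cells are known to lie there often. Tet2 oxidises methylcytosine, a step towards its removal, and is recurrently lost in myeloid blood cancers. Nras is a signalling GTPase of the Ras family, and the G12D change keeps it active.

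The shores have coordinates in mm9, for which no genome was at hand, so the island side is shown at 4 genes whose shore was lower in the leukemic double mutant. The genes were chosen after the values were seen, for their known roles. Bcl3 encodes an atypical IkB protein that acts as a cofactor of NF-kB, Btg2 an antiproliferative protein that binds the CCR4-NOT complex, Emb the membrane protein embigin, a partner of monocarboxylate transporters, and Rps15 a protein of the small ribosomal subunit. Each line gives, 5′ to 3′ on the gene's strand, the 250 bases before the gene's start in RefSeq for GRCm38.p6. Capitals mark the CpGs that were read in all 12 libraries. The printed bases are chr7:19822756-19823005 (minus strand) for Bcl3, chr1:134079156-134079405 (minus strand) for Btg2, chr13:117220323-117220572 (plus strand) for Emb and chr10:80292181-80292430 (plus strand) for Rps15.
Bcl3: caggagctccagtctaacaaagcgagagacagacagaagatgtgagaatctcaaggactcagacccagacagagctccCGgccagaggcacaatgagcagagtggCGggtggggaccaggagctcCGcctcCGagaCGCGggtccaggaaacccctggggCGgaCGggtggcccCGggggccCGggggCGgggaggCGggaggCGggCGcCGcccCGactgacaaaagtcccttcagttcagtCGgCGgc
Btg2: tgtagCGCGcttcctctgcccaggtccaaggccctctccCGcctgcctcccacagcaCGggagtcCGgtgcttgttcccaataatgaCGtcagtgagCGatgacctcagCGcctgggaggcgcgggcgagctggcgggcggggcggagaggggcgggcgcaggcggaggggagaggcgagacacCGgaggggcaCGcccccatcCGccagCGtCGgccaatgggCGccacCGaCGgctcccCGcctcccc
Emb: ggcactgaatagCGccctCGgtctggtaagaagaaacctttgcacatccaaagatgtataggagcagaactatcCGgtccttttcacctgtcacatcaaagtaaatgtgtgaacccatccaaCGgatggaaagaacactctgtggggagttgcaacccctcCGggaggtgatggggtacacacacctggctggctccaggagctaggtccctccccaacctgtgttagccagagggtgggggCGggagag
Rps15: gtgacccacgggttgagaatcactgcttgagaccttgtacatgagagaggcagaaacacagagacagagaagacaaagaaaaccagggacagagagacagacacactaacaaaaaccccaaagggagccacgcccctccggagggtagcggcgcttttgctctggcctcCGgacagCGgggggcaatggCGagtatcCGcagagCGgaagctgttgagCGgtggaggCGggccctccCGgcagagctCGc

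In the printed Bcl3 bases, 18 of 19 CpGs were read, and their mean level was 0.0864% ± 0.0986 in the leukemic and 0.0921% ± 0.0800 in the nonleukemic double mutant (SD, n = 3 each). The 17 of 27 CpGs read before Btg2 had 0.201% ± 0.299 in the leukemic and 0.388% ± 0.337 in the nonleukemic double mutant. The 9 of 14 CpGs read before Rps15 had 0.152% ± 0.209 in the leukemic and 0.346% ± 0.314 in the nonleukemic double mutant. These 3 promoters were thus close to fully unmethylated in both groups, while the shore beside each of them, described further on, was partly methylated. Emb differed from them: its 6 CpGs had 1.87% ± 1.66 in the leukemic double mutant, 6.995% ± 1.53 in the nonleukemic one, 6.99% ± 2.23 in Tet2 knockout and 3.06% ± 1.52 in Nras G12D.

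Shores directly next to an island were mostly unmethylated themselves. The share of these 5510 tiles with a level under 20% averaged 86.5% in leukemic double mutants, 84.9% in nonleukemic ones, 84.4% in Tet2 knockout and 85.4% in Nras G12D. Further out, at 2 tiles from the island, the same share was 38.9% in leukemic double mutants, 36.8% in nonleukemic ones, 36.4% in Tet2 knockout and 37.4% in Nras G12D. Tiles over 80% made up 34.6% of these outer shores in leukemic double mutants, 42.7% in nonleukemic ones, 43.2% in Tet2 knockout and 40.9% in Nras G12D. Many tiles that the rule calls shores are therefore still island by their level. In nonleukemic double mutants, tiles at 20 to 80% averaged 9.80% of the shores next to an island and 20.5% of the outer ones. The climb in methylation thus began in some of the inner shores and had gone further in the outer ones.

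The climb can be followed by distance from the outermost CpG of the island tile. Shore CpGs within 100 bases (14345 CpGs) had a mean level of 1.37% in leukemic double mutants, 1.43% in nonleukemic ones, 1.49% in Tet2 knockout and 1.34% in Nras G12D. At 400 to 599 bases (5390 CpGs) the levels were 9.72% in leukemic and 10.9% in nonleukemic double mutants, 11.2% in Tet2 knockout and 10.5% in Nras G12D. The level climbed with distance in all 4 groups. At 1000 to 1249 bases (2952 CpGs) the leukemic double mutants had 28.6%, the nonleukemic ones 31.9%, Tet2 knockout 32.3% and Nras G12D 31.1%. At 2000 to 2999 bases (1411 CpGs) the leukemic double mutants had 48.9%, the nonleukemic ones 53.1%, Tet2 knockout 53.4% and Nras G12D 52.0%. The leukemic mean was the lowest from 100 bases outward, and the gap to the nonleukemic double mutant was -0.214 points at 100 to 199 bases, -1.18 at 400 to 599, -2.60 at 800 to 999 and -4.20 at 2000 to 2999. Single libraries overlapped in the inner bins. Leukemic replicate 1 had 2.31% at 100 to 199 bases, against 2.12% and 2.11% in Nras G12D replicates 1 and 2. At 200 to 399 bases it had 4.87%, against 4.72% and 4.75% in the same Nras G12D libraries.

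**Figure D1:**
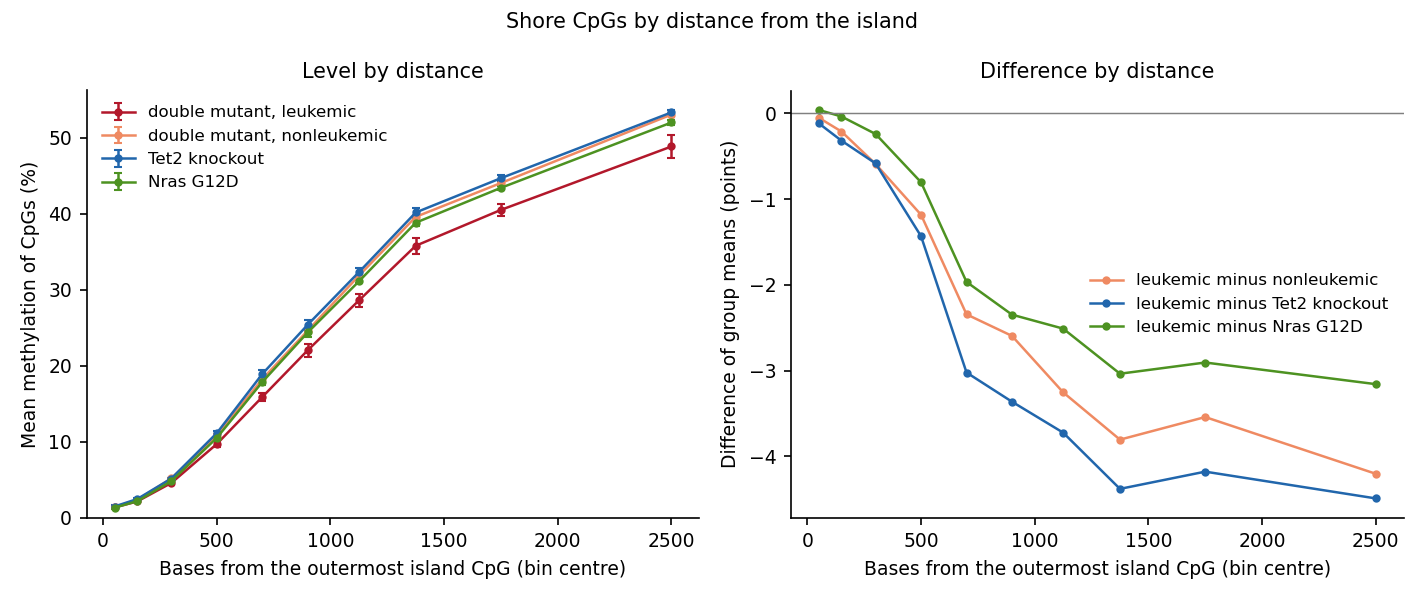
Left, the mean methylation level (%) of shore CpGs against distance (bases) from the outermost CpG of the nearest island tile, 1 line per group, with bars for the SD over 3 libraries. Right, leukemic double mutant minus each other group in percentage points: the gap to the nonleukemic double mutant is -0.0521 points within 100 bases and -4.20 at 2000 to 2999 bases.

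Over all 6811 shore tiles, the leukemic double mutant had the lowest mean level. Its libraries were at 17.7%, 16.6% and 17.0% (17.1% ± 0.518, SD, n = 3). The nonleukemic double mutants were at 19.1%, 19.01% and 19.01% (19.04% ± 0.0530), the Tet2 knockouts at 19.2%, 19.9% and 19.3% (19.5% ± 0.355), and the Nras G12D libraries at 18.4%, 18.5% and 18.8% (18.6% ± 0.241). No library of any group overlapped with a library of another, so the order was leukemic lowest, then Nras G12D, nonleukemic double mutant and Tet2 knockout. The leukemic mean differed from that of the nonleukemic double mutant by -1.95 points, of Tet2 knockout by -2.37 points and of Nras G12D by -1.48 points. Among the groups without leukemia, the double mutant lay at -0.422 points relative to Tet2 knockout (-0.218 without Tet2 knockout replicate 2) and at 0.475 points relative to Nras G12D.

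In points, the gap was wider in the outer shores. As a share of the nonleukemic level it was widest in between. Leukemic against nonleukemic double mutants, the relative change was -3.65% within 100 bases, -9.02% at 100 to 199 and -12.8% at 600 to 799. It was -8.03% at 1500 to 1999 and -7.92% at 2000 to 2999. Next to an island, the mean was 9.88% ± 0.361 in leukemic double mutants, 11.1% ± 0.0520 in nonleukemic ones, 11.5% ± 0.329 in Tet2 knockout and 10.8% ± 0.229 in Nras G12D (SD, n = 3 each). At 2 tiles from the island it was 47.6% ± 1.23 in leukemic double mutants, 52.5% ± 0.0707 in nonleukemic ones, 53.1% ± 0.501 in Tet2 knockout and 51.3% ± 0.291 in Nras G12D. The groups did not overlap at either distance. Leukemic minus nonleukemic was -1.27 points next to the island and -4.86 points at 2 tiles, against -5.27 points in the 63545 tiles that were neither island nor shore. In island tiles, where the rule fixed a low level, the groups overlapped, with 0.939% ± 0.108 in leukemic double mutants, 0.926% ± 0.0191 in nonleukemic ones, 0.996% ± 0.145 in Tet2 knockout and 0.852% ± 0.128 in Nras G12D.

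**Figure D2:**
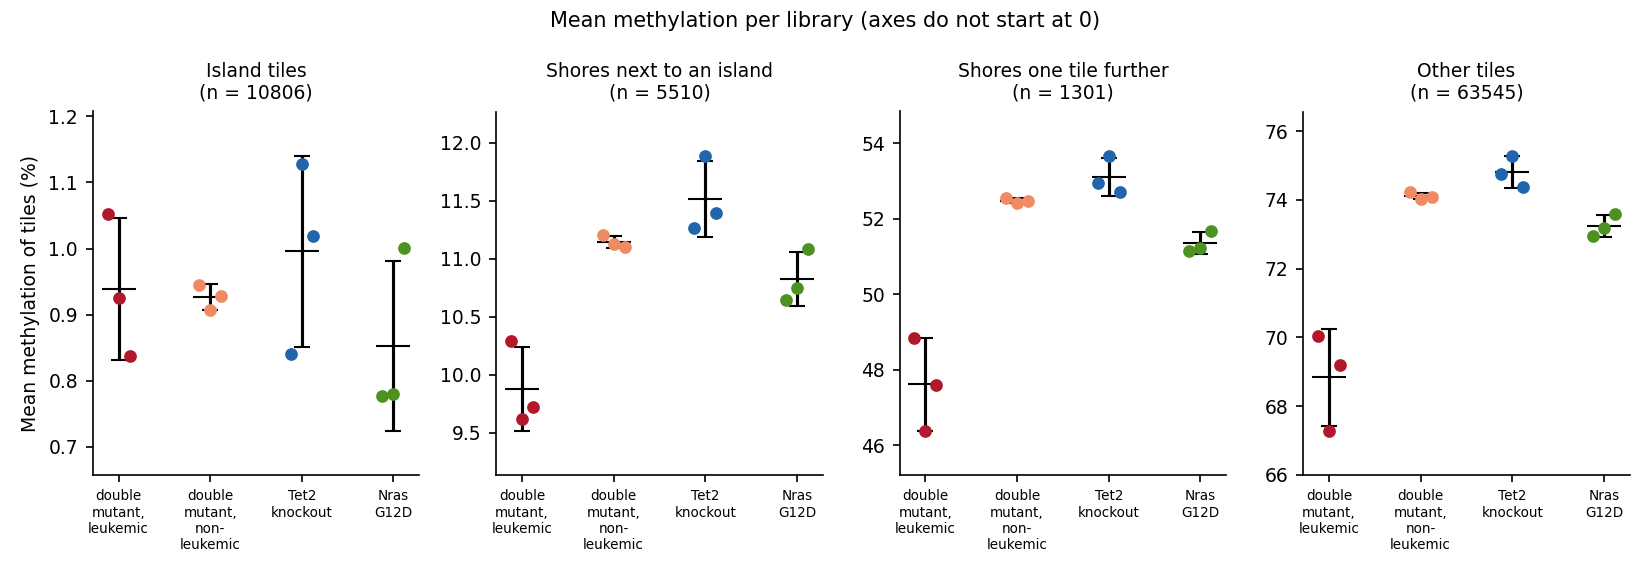
Mean methylation level (%) per library in island tiles, in shores next to an island, in shores 1 tile further out and in all other tiles, with the 4 groups along each horizontal axis. Dots are libraries and bars are mean ± SD; the axes do not start at 0, and in both shore panels the leukemic dots lie below those of every other group.

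At the edges of the rule the levels ran on. Shores with 19 CpGs, 1 or 2 tiles from an island and just inside the upper limit (162 tiles), had 1.86% in leukemic and 1.87% in nonleukemic double mutants. Tiles with 20 CpGs at the same distances, just outside it (187 tiles), had 2.52% in leukemic and 2.73% in nonleukemic double mutants. These can be island tiles themselves. Island tiles of 9 to 10% just inside the level limit (44 tiles) had 8.37% in leukemic and 9.59% in nonleukemic double mutants. Tiles of 10 to 11% just outside it (41 tiles) had 8.72% in leukemic and 10.5% in nonleukemic ones. Both windows were cut on the mean over the 9 libraries without leukemia. They thus hold the nonleukemic level in place but not the leukemic one, and the gap between these groups there is a description only. Tiles 3 steps from an island (1068 tiles), just past the distance limit, had 54.9% ± 1.06 in leukemic and 60.2% ± 0.0311 in nonleukemic double mutants. Shores with fewer CpGs were more methylated: with 3 or 4 CpGs (1913 tiles) the mean was 32.2% in leukemic and 36.0% in nonleukemic double mutants, and with 10 to 19 CpGs (2433 tiles) it was 5.28% in leukemic and 5.74% in nonleukemic ones.

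In points, the gap was wider in the shores that carry methylation. Shores with a low level have little room to fall in points. Shores were split by their mean over the Tet2 knockout and Nras G12D libraries, so the split does not use the leukemic and nonleukemic double mutants. The 5168 shores under 20% had 2.31% in leukemic and 2.53% in nonleukemic double mutants. The 812 partly methylated shores, at 20 to 80%, had 40.8% ± 1.53 in leukemic double mutants, 48.6% ± 0.217 in nonleukemic ones, 50.6% ± 1.62 in Tet2 knockout and 46.7% ± 0.620 in Nras G12D. The 831 shores over 80% had 85.8% ± 2.17 in leukemic double mutants, 92.8% ± 0.130 in nonleukemic ones, 93.6% ± 0.361 in Tet2 knockout and 92.2% ± 0.133 in Nras G12D. Leukemic minus nonleukemic was -7.87 points in the partly methylated shores, against -8.04 in partly methylated tiles away from islands, and -6.94 points in the shores over 80%, against -5.84 in such tiles away from islands. Shores and other tiles of like level thus differed by similar numbers of points, with no test between them. In 525 of the 812 partly methylated shores (64.7%) the leukemic mean was the lowest of the 4 groups, and in 400 (49.3%) the Tet2 knockout mean was the highest. Tet2 knockout and Nras G12D libraries set the split, so these ranks are a description only, and no such share was taken over other tiles.

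Single shores were then tested for a difference between leukemic and nonleukemic double mutants. A shore was called when a quasi-binomial fit of its read counts, made across all 81162 tiles, gave a Benjamini-Hochberg adjusted p under 0.05 and the group means differed by at least 10 points. Of the 6811 shores, 129 were called lower in the leukemic double mutant (1.89%) and 4 higher (0.0587%). Over all tiles tested, 3.87% were called lower and 0.115% higher. A call needs a difference of 10 points, which few of the 5168 shores under 20% could reach downward, so the shares at like level are given as well. By distance, 64 of 5510 shores next to an island (1.16%) and 65 of 1301 at 2 tiles (4.996%) were called lower, against 4.74% of the tiles that were neither island nor shore. By level, 8 of 5168 shores under 20% were called lower (0.155%), 63 of 812 at 20 to 80% (7.76%) and 58 of 831 over 80% (6.98%). The tiles away from islands gave 0.482% under 20% (49 of 10167), 8.02% at 20 to 80% and 5.03% over 80%.

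Without asking for a p, 918 shores (13.5%) had every leukemic library below every nonleukemic one, against 19.9% of all tiles, and 183 (2.69%) had every leukemic library above, against 2.56% of all tiles. With the 129 falls and 4 rises, 133 shores were called in all. Without leukemic replicate 1, 2 or 3, the count was 223, 148 or 182, and without nonleukemic replicate 1, 2 or 3 it was 35, 31 or 39. The cause of these differences was not tested. Without the 3 libraries with chromosome Y reads, 1 of them nonleukemic, 15 were called. Limma on log2 ratios of methylated to unmethylated reads called 2 shores, and the quasi-binomial fit on the 6 libraries of these groups alone called 10.

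**Figure D3:**
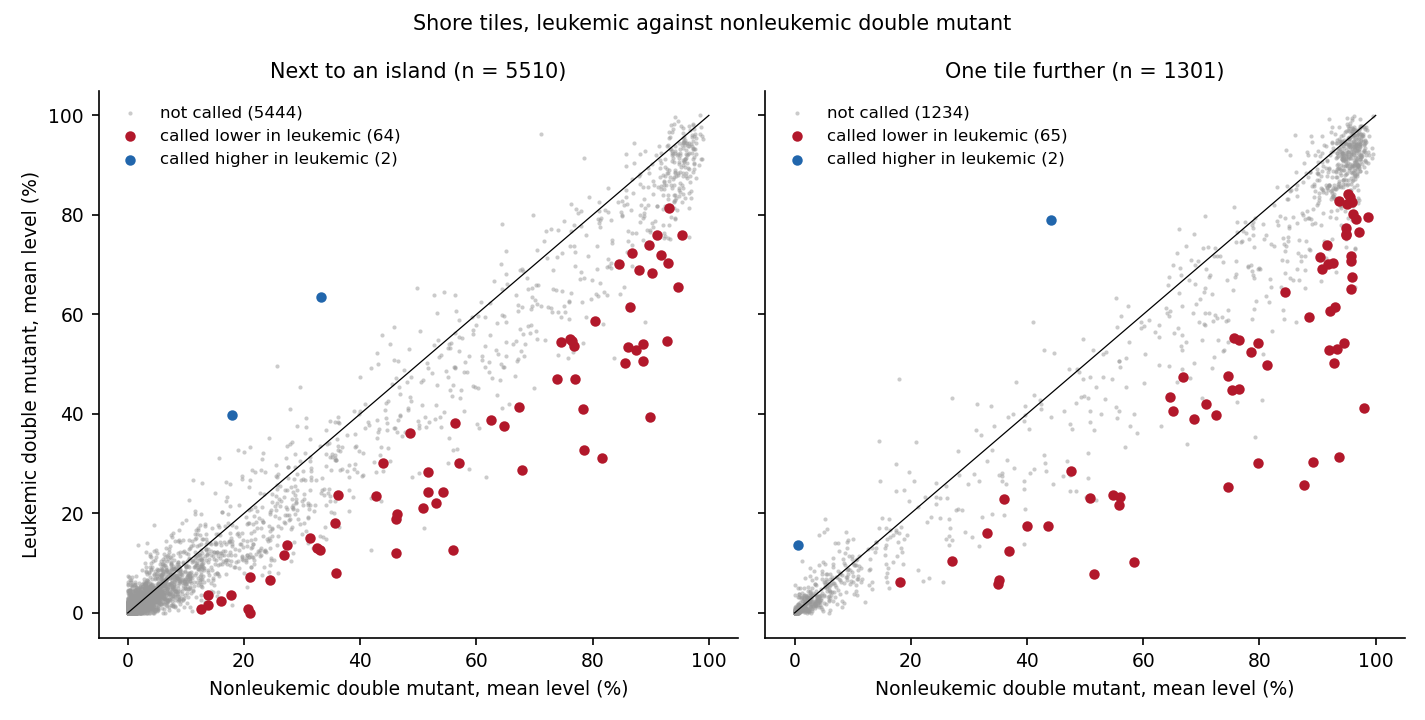
Mean methylation level (%) of each shore tile in the leukemic double mutant against its level in the nonleukemic one, with 1 panel for shores next to an island and 1 for shores at 2 tiles. Red points are shores called lower in the leukemic double mutant (64 and 65), blue points those called higher (2 in each panel), and grey points the others.

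The 129 shores called lower had a median difference of -23.8 points, with quartiles at -31.2 and -18.2 and a range of -62.4 to -10.3. Their median level was 42.0% in leukemic double mutants, 76.4% in nonleukemic ones, 79.6% in Tet2 knockout and 72.6% in Nras G12D. The leukemic mean was the lowest of the 4 groups in 127 of them, and in 126 the leukemic and nonleukemic libraries did not overlap, which the call itself favours. Of their 743 CpGs, 665 were lower in the leukemic double mutant, 514 of them by at least 10 points. The call favours this too, since it was made on the same CpGs, and no such share was taken over other tiles. All CpGs were lower in 88 of the 129 tiles, and 111 tiles kept a difference of 10 points when any 1 CpG was left out. With each CpG of a tile weighted equally in place of each read, 125 of the 129 were lower by at least 10 points, with a median of -21.0 points. The island tiles beside them had a median level of 0.421% in leukemic and 0.305% in nonleukemic double mutants, and 1 of these islands passed 10% in a leukemic library. Leukemic replicates 1, 2 and 3 were the lowest library in 41, 51 and 37 of the 129 shores. The median range between replicates was 12.99 points in leukemic and 6.33 points in nonleukemic libraries. The 129 shores lay on all 19 autosomes, 3 of them on chromosome 3, which holds both Tet2 and Nras.

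Shores on both sides of an island could be compared at 1091 islands. Both flanks were under 20% at 610 of them, and both were at 20% or more at 73. Leukemic minus nonleukemic at the 2 flanks of these 73 islands correlated at r = -0.0762, a description over points that share the island and the libraries. The 2 differences had the same sign at 53 of the 73 islands, and both flanks were lower at 50. The number expected from the lower level of methylated shores in general was not computed. A called fall lay on 1 flank at 43 islands and on both flanks at 0 of them. A fall on both needs methylation on both flanks, and only 73 of the 1091 islands had 20% or more on both.

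The largest called falls are described first, taking shores of 5 or more CpGs whose leukemic and nonleukemic libraries did not overlap. Tile coordinates are those of mm9. Gene names come from RefSeq promoters of GRCm38.p6 whose CpG spacing matched the mm9 CpG positions at 1 place, and distances run from the centre of the tile to the gene's start.

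The shore with the largest fall, chr5:116476000-116476999, lay 2 tiles from its island and held 5 CpGs at 1790 to 1884 bases from the last island CpG. It had 41.3%, 11.3% and 24.7% methylation in the leukemic double mutants, against 82.9%, 92.0% and 88.0% in the nonleukemic ones. Tet2 knockouts had 93.9%, 97.2% and 82.0%, and Nras G12D libraries 75.8%, 69.0% and 86.0%. The leukemic libraries were spread widely but all lay below the 9 others. Leukemic minus nonleukemic was -61.9 points (quasi-binomial test, Benjamini-Hochberg adjusted p = 0.00278), and all 5 CpGs were lower. Against Tet2 knockout the difference was -65.3 points (adjusted p = 0.0011) and against Nras G12D -51.2 points (adjusted p = 0.0174), a call lost in 7 of 13 alternatives.

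The shore chr2:156668000-156668999, with 9 CpGs, lay 1516 bases upstream of the start of LOC115486128, a RefSeq locus named only by its number. Its levels were 38.8%, 30.4% and 21.0% in leukemic double mutants, against 79.5%, 81.6% and 78.4% in nonleukemic ones, 78.6%, 97.6% and 77.8% in Tet2 knockout and 76.3%, 76.3% and 80.6% in Nras G12D. The difference from the nonleukemic double mutant was -49.8 points (quasi-binomial test, adjusted p = 0.000835), that from Tet2 knockout -54.6 (adjusted p = 0.000462) and that from Nras G12D -47.7 (adjusted p = 0.00221). The fall stopped inside the tile. The 7 CpGs nearest the island, at 1204 to 1309 bases, had 1.14 to 34.1% in leukemic and 59.0 to 91.5% in nonleukemic double mutants, while the outer 2 CpGs had 78.2% in both groups at 1597 bases, and 94.8% in leukemic against 96.4% in nonleukemic ones at 1716 bases.

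Beside Ccdc116, the shore chr16:17148000-17148999 held 14 CpGs within 6 to 385 bases of the island, 1178 bases upstream of the gene's start. It had 10.04%, 12.2% and 15.9% in leukemic double mutants, against 53.9%, 62.2% and 52.1% in nonleukemic ones, 62.6%, 65.7% and 72.9% in Tet2 knockout and 55.1%, 59.2% and 48.9% in Nras G12D. All 14 CpGs were lower, by -43.3 points over the tile (quasi-binomial test, adjusted p = 4.47e-05). In the nonleukemic double mutant this shore turned from low to high within less than the length of the tile. Its CpGs at 6 to 31 bases had 0 to 2.54% in leukemic and 7.54 to 19.5% in nonleukemic double mutants. The 9 CpGs at 209 to 385 bases had 1.76 to 57.8% in leukemic and 63.8 to 92.8% in nonleukemic double mutants. The island beside it reached 12.97% in 1 library, and averaged 1.205% in leukemic and 5.45% in nonleukemic double mutants. Against Tet2 knockout the shore differed by -54.4 points (adjusted p = 1.09e-05) and against Nras G12D by -41.7 points (adjusted p = 7.18e-05).

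The other 5 were alike in size. The shore chr2:33741000-33741999 had 29.9%, 27.3% and 41.2% in leukemic and 78.3%, 78.0% and 79.3% in nonleukemic double mutants (-45.7 points, quasi-binomial test, adjusted p = 0.00343), and 1 Nras G12D library there, at 44.3%, lay close to the leukemic ones. The shore chr4:155365000-155365999, 1946 bases upstream of Sdf4, which encodes a calcium-binding protein of the Golgi, had 22.6%, 22.0% and 41.3% in leukemic and 68.6%, 62.8% and 72.3% in nonleukemic double mutants (-39.3 points, adjusted p = 0.0026). The leukemic libraries stood below all 9 others at both. The shore chr9:108353000-108353999, 1333 bases upstream of Ccdc71, had 53.7%, 57.3% and 39.6% in leukemic and 86.5%, 85.1% and 84.8% in nonleukemic double mutants, and all 13 CpGs were lower (-35.3 points, adjusted p = 0.000345). The shore chr4:117158000-117158999 had 68.0%, 42.1% and 48.2% in leukemic and 84.0%, 89.7% and 88.5% in nonleukemic double mutants (-34.7 points, adjusted p = 0.00787).

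The shore chr19:4001000-4001999, 920 bases downstream of the start of Nudt8, a Nudix hydrolase gene, showed a different order of the groups in its summed reads. It had 46.3%, 40.4% and 36.2% in leukemic double mutants, against 83.6%, 75.8% and 75.7% in nonleukemic ones, 62.9%, 63.6% and 67.9% in Tet2 knockout and 53.0%, 69.0% and 77.8% in Nras G12D. The leukemic libraries were the lowest, and the Tet2 knockouts lay between them and the nonleukemic double mutants (leukemic minus nonleukemic -37.4 points, quasi-binomial test, adjusted p = 0.00717). Single CpGs did not all keep this order. Tet2 knockout had 84.7% at 350 bases from the island, against 59.4% in nonleukemic double mutants. It had 81.3% against 92.7% at 395 bases and 91.6% against 94.1% at 410. With each CpG weighted equally, leukemic minus nonleukemic was -27.7 points. The difference lay in its middle: the 3 CpGs at 350 to 410 bases from the island had 13.7 to 67.0% in leukemic and 59.4 to 94.1% in nonleukemic double mutants, while the CpG at 26 bases had 7.19% in leukemic and 4.53% in nonleukemic ones and the CpG at 547 bases 97.0% in leukemic and 98.8% in nonleukemic ones. Of these 8 falls, 6 kept their call without any 1 library of either group. The Nudt8 shore lost it without nonleukemic replicate 1 (-34.8 points, quasi-binomial test, adjusted p = 0.0551) and chr4:117158000-117158999 without nonleukemic replicate 2 (-33.5 points, adjusted p = 0.0588). None of the 8 passed limma on log2 ratios.

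**Figure D4:**
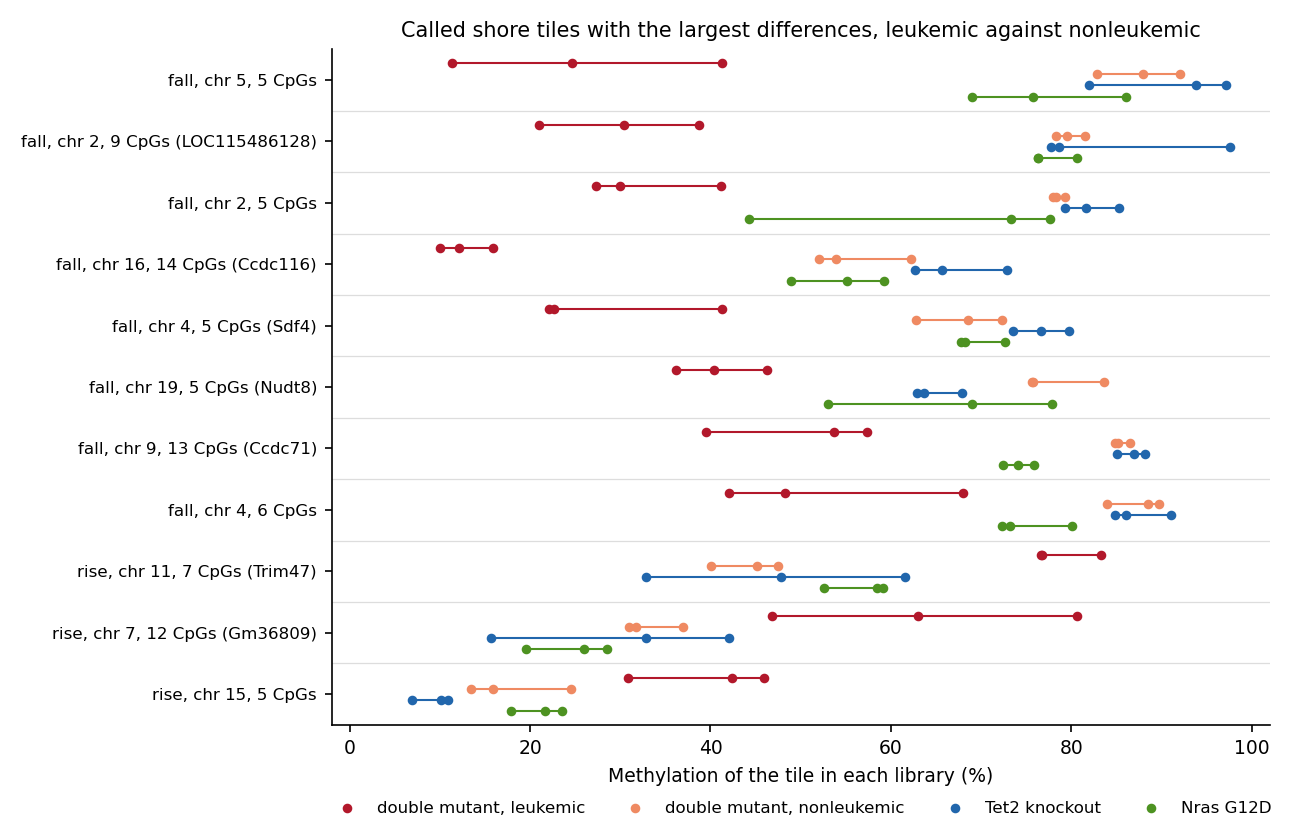
Methylation level (%) in each library of the 8 largest called falls and the 3 largest called rises between leukemic and nonleukemic double mutants, 1 row per tile and 1 line of dots per group. In the 8 falls the leukemic dots lie left of the nonleukemic ones, from 10.04 to 68.0%, against 52.1 to 92.0%.

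Falls beside genes were collected with a second rule, added after the values were seen: called falls with at least 5 CpGs, no overlap, 10 points left without any 1 CpG and a matched start of a protein-coding gene. It took 25 shores and 27 genes. By the first gene listed at each, 10 shores lay upstream and 15 downstream of the start. Of these, the shore downstream of Kiss1r lay upstream of R3hdm4, and that downstream of Zbtb12 lay upstream of Ehmt2. Among all shores with a matched start on 1 side, 1140 lay upstream and 1397 downstream. Of these 25 shores, 7 kept their call without any 1 library of either group: those of Ccdc116, Sdf4, Ccdc71, Rps15, Lrrc8d, Sptbn4 and Eif3l. The others were lost mostly with a nonleukemic library. Without nonleukemic replicate 1, 2 or 3, 17, 17 and 15 calls were lost, and without leukemic replicate 1, 2 or 3, 2, 4 and 1 were lost. None of the 25 passed limma on log2 ratios. With each CpG weighted equally, all 25 were still lower by at least 10 points in leukemic than in nonleukemic double mutants, but 4 differences shrank by over 1.5 times, to -20.6 points at Rps15, -15.5 at Sptbn4, -14.1 at Anapc2 and -10.7 at Btg2, and the libraries then overlapped at Slc27a3.

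Rps15 and Eif3l are among the 7. The shore 1324 bases downstream of the start of Rps15 (chr10:79756000-79756999) had 23.6%, 25.8% and 16.7% in leukemic double mutants, against 52.0%, 52.3% and 54.7% in nonleukemic ones, 61.4%, 64.7% and 61.7% in Tet2 knockout and 42.6%, 49.3% and 53.9% in Nras G12D. All leukemic libraries lay below all others, and leukemic minus nonleukemic was -31.0 points (quasi-binomial test, adjusted p = 0.000672). The shore 847 bases downstream of the start of Eif3l (chr15:78906000-78906999), which encodes a subunit of the initiation factor eIF3, had 13.6%, 10.97% and 13.4% in leukemic double mutants, against 33.2%, 29.2% and 36.9% in nonleukemic ones (-20.5 points, adjusted p = 0.0039).

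Lrrc8d and Sptbn4 are among the 7 as well. The shore 1512 bases downstream of the start of Lrrc8d (chr5:106130000-106130999), which encodes a subunit of the volume-regulated anion channel, had 7.53%, 13.3% and 3.03% in leukemic double mutants, against 40.0%, 36.3% and 31.4% in nonleukemic ones, 53.6%, 52.7% and 53.8% in Tet2 knockout and 26.3%, 32.4% and 43.7% in Nras G12D. Here the Tet2 knockouts were the highest and the leukemic libraries the lowest, without overlap with any other group (leukemic minus nonleukemic -28.0 points, quasi-binomial test, adjusted p = 0.00386). The shore 1892 bases upstream of Sptbn4, a spectrin gene, had a mean of 12.4% ± 6.93 in leukemic and 37.0% ± 2.58 in nonleukemic double mutants (-24.6 points, adjusted p = 0.00671). The shore 880 bases upstream of Emb (chr13:118008000-118008999) had 39.3%, 66.1% and 55.3% in leukemic double mutants, against 87.2%, 86.9% and 83.9% in nonleukemic ones (-32.5 points, adjusted p = 0.0118). The Emb call was less steady: it was lost without nonleukemic replicate 1 (adjusted p = 0.0601) or 2 (adjusted p = 0.0738), and at a coverage minimum of 20 reads the difference was -7.89 points.

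The calls at Bcl3 and Btg2 were lost when single libraries were left out. The shore 2396 bases upstream of Bcl3 (chr7:20410000-20410999) had 30.5%, 17.1% and 21.9% in leukemic double mutants, against 61.8%, 47.7% and 43.1% in nonleukemic ones, 55.9%, 65.8% and 63.4% in Tet2 knockout and 21.8%, 23.0% and 37.2% in Nras G12D. The leukemic double mutant and Nras G12D were both low here and overlapped, and the other groups lay above them. Leukemic minus nonleukemic was -27.7 points (quasi-binomial test, adjusted p = 0.028), leukemic minus Tet2 knockout -38.5 (adjusted p = 0.00288) and leukemic minus Nras G12D -4.19 (adjusted p = 0.814). The first of these calls was lost without leukemic replicate 2 (-24.7 points, adjusted p = 0.0621) and without nonleukemic replicate 1, 2 or 3 (adjusted p = 0.112, 0.101 and 0.0644).

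The shore 1232 bases downstream of the start of Btg2 (chr1:135974000-135974999) had 17.0%, 8.99% and 12.9% in leukemic double mutants, against 34.7%, 31.1% and 31.8% in nonleukemic ones, 32.5%, 18.98% and 23.0% in Tet2 knockout and 23.8%, 17.98% and 27.2% in Nras G12D. The leukemic libraries lay below all 9 others, by -19.6 points from the nonleukemic double mutant (quasi-binomial test, adjusted p = 0.0178), while -11.9 points from Tet2 knockout and -9.997 from Nras G12D were not called. Without nonleukemic replicate 1, 2 or 3 the adjusted p was 0.0932, 0.0782 or 0.0708. Dll4 and Numbl had smaller falls. The shore 2020 bases upstream of Dll4, a Notch ligand, had 36.7%, 36.1% and 35.9% in leukemic double mutants, against 45.6%, 53.5% and 46.8% in nonleukemic ones over 17 CpGs (-12.4 points, adjusted p = 0.0218). The shore 1280 bases upstream of Numbl, an adaptor that restrains Notch, had 3.61% ± 2.34 in leukemic and 17.8% ± 2.03 in nonleukemic double mutants (-14.2 points, adjusted p = 0.0161). Both lost the call when any 1 of the nonleukemic libraries was left out, with an adjusted p of up to 0.152 for Dll4 and up to 0.0893 for Numbl.

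The remaining gene shores span many roles. They lay beside the kisspeptin receptor gene Kiss1r with R3hdm4 (42.0% in leukemic against 70.8% in nonleukemic double mutants), the histone methyltransferase gene Ehmt2 with the zinc finger gene Zbtb12 (52.4% against 78.5%), the Golgi GTPase gene Arf5 (70.8% against 95.7%) and Slc27a3 of the fatty acid transport family (17.5% against 40.0%). They also lay beside the anaphase-promoting complex gene Anapc2 (54.7% against 76.4%), the JNK scaffold gene Mapk8ip3 (55.1% against 76.1%), the lipid kinase gene Pip5k1c (28.4% against 47.6%), the GTPase-activating protein gene Arap1 (71.6% against 90.5%), the Cdc42 effector gene Cdc42ep1 (30.1% against 43.9%), Gprin1 (69.1% against 90.8%), Mien1 (70.1% against 91.7%) and Tmem120b (6.54% against 24.5%). At Pip5k1c the Nras G12D mean, 25.1%, was below the leukemic one. The differences at Arf5 and Ehmt2 leaned on 1 library each: -24.9 points at Arf5 became -13.7 without leukemic replicate 2, and -26.1 points at Ehmt2 became -17.2 without leukemic replicate 1.

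**Figure D5:**
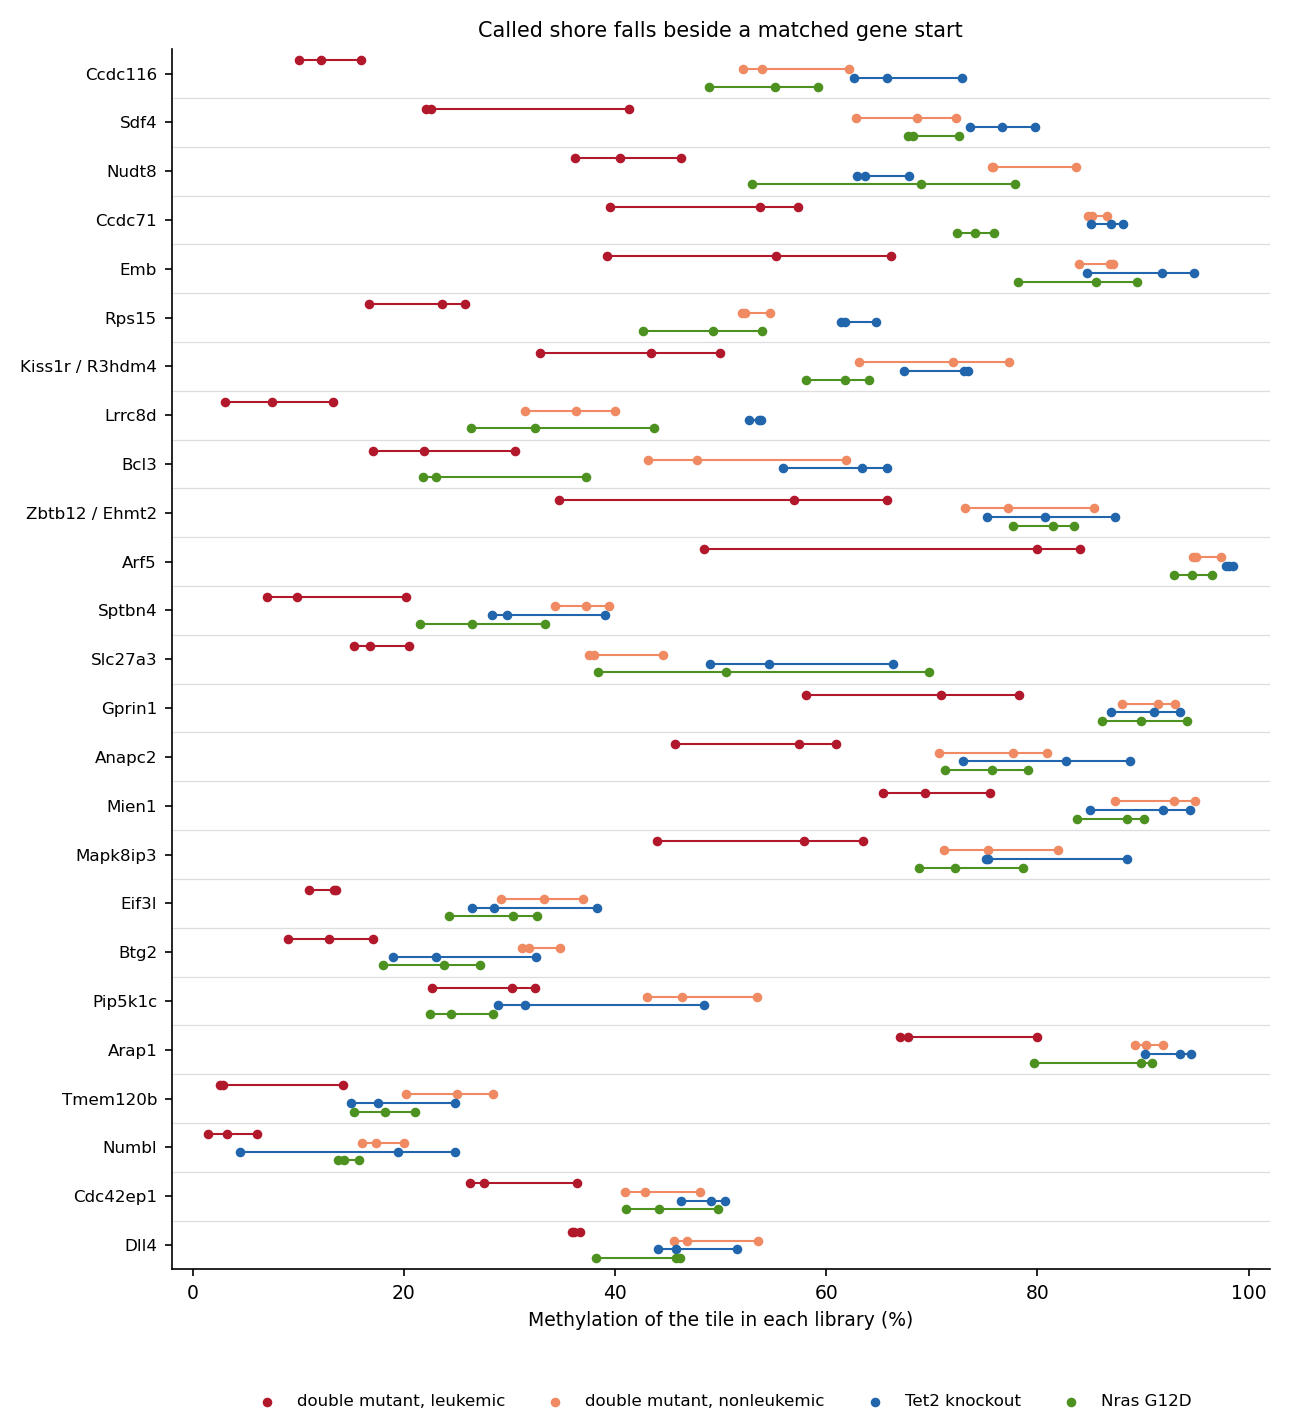
Methylation level (%) in each library of the 25 shores called lower in the leukemic double mutant beside a matched gene start, 1 row per shore and 1 line of dots per group. The leukemic dots lie left of the nonleukemic dots in every row. The Nras G12D dots overlap the leukemic ones at Bcl3, Pip5k1c and Arap1, and the Tet2 knockout dots do so at Pip5k1c and Numbl.

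Rises were few. The shore chr15:76287000-76287999, with 5 CpGs at 12 to 54 bases from its island, had 46.0%, 42.4% and 30.9% in leukemic double mutants, against 13.5%, 15.9% and 24.5% in nonleukemic ones, 6.93%, 10.2% and 10.8% in Tet2 knockout and 21.6%, 17.8% and 23.5% in Nras G12D. All leukemic libraries were above all others (leukemic minus nonleukemic 21.8 points, quasi-binomial test, adjusted p = 0.0092, with 30.4 against Tet2 knockout and 18.8 against Nras G12D), and the island beside it averaged 30.4% in leukemic and 12.4% in nonleukemic double mutants, with 37.6% in its highest library. The call was lost without nonleukemic replicate 1 (adjusted p = 0.0635) or 2 (adjusted p = 0.0753). The shore chr7:25740000-25740999, 1005 bases upstream of Gm36809, had 80.7%, 46.8% and 63.0% in leukemic double mutants, against 37.0%, 31.8% and 31.0% in nonleukemic ones, and all 12 CpGs were higher (30.3 points, adjusted p = 0.0449). It lost the call without leukemic replicate 1 (21.7 points, adjusted p = 0.0894) or 3 (adjusted p = 0.0621) and without nonleukemic replicate 1, 2 or 3 (adjusted p = 0.115, 0.18 and 0.142). The third, chr11:115969000-115969999 beside the ubiquitin ligase gene Trim47, had 78.9% ± 3.76 in leukemic and 44.2% ± 3.8 in nonleukemic double mutants (34.7 points, adjusted p = 0.007) and kept its call without any 1 library of either group. It was not called against Nras G12D (22.2 points, quasi-binomial test, adjusted p = 0.0689) and had no value at a coverage minimum of 20 reads. All 3 rises lost their call with limma on log2 ratios, and 2 with the fit on the 6 libraries compared. The fourth called rise had 4 CpGs and fell outside the naming rule.

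The leukemic double mutant was also set against the single mutants, in comparisons that share its libraries. Against Tet2 knockout, 255 shores were called lower (3.74%) and 7 higher, where 7.5% and 0.158% of all tiles were. Against Nras G12D, 77 were called lower (1.13%) and 3 higher, where 1.96% and 0.0887% of all tiles were. The median difference of the called falls was -20.8 points from Tet2 knockout and -25.9 points from Nras G12D. Shores without overlap between replicates and lower in leukemic cells numbered 744 (10.9%) against Tet2 knockout and 618 (9.07%) against Nras G12D, where 19.2% and 14.6% of all tiles did so. Those higher in leukemic cells numbered 216 and 256, where 2.26% and 2.94% of all tiles did so. The 262 calls against Tet2 knockout became 342, 254 or 310 without leukemic replicate 1, 2 or 3, and 188, 136 or 164 without Tet2 knockout replicate 1, 2 or 3. The 80 calls against Nras G12D became 138, 85 or 126 without leukemic replicate 1, 2 or 3, and 23, 11 or 22 without Nras G12D replicate 1, 2 or 3. Without the 3 libraries with chromosome Y reads, the counts were 2 against Tet2 knockout and 10 against Nras G12D.

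Among the 3 groups without leukemia, single shores hardly separated. The nonleukemic double mutant had 1 shore called higher and 0 lower than Nras G12D, where 0.00246% and 0% of all tiles were called. It had 0 shores called against Tet2 knockout, and Tet2 knockout had 0 called against Nras G12D, where 0% of all tiles were called in either direction by the quasi-binomial model. Limma on log2 ratios also called 0 in the 3 comparisons. At an unadjusted p under 0.05, 127 shores were higher (1.86%) and 50 lower (0.734%) in the nonleukemic double mutant than in Nras G12D, where 2.08% and 0.773% of all tiles were. Against Tet2 knockout, 79 shores were higher (1.16%) and 189 lower (2.77%) in the nonleukemic double mutant, where 0.982% and 2.38% of all tiles were. In Tet2 knockout, 291 shores were higher (4.27%) and 69 lower (1.01%) than in Nras G12D, where 5.03% and 0.952% of all tiles were. Every Tet2 knockout library was above every Nras G12D library in 424 shores (6.23%) and below in 181 (2.66%), against 8.94% and 2.49% of all tiles. For the nonleukemic double mutant against Nras G12D, 569 shores (8.35%) were higher and 169 (2.48%) lower without overlap, against 8.45% and 3.58% of all tiles. Against Tet2 knockout, 379 (5.56%) were higher and 298 (4.38%) lower, against 4.15% and 7.07% of all tiles.

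The 1 called shore of these groups was chr12:20927000-20927999, with 12 CpGs, at 18.6%, 15.98% and 28.7% in nonleukemic double mutants and 0.0733%, 0.0645% and 0.561% in Nras G12D (20.9 points, quasi-binomial test, adjusted p = 0.0493). Its call was lost in 12 of 14 alternatives, and the island tile beside it averaged 13.9% in the nonleukemic double mutants, with 19.1% in its highest library. The leukemic double mutants, at 0.105%, 0.0675% and 0.0376%, were as low here as Nras G12D, and Tet2 knockouts had 13.2%, 0.389% and 10.6%. Where nothing was called, the shore of 5 or more CpGs with the smallest unadjusted p is given. The Bcl3 shore was 34.3 points higher in Tet2 knockout than in Nras G12D (quasi-binomial test, adjusted p = 0.261), and chr17:24889000-24889999 was lower by -2.09 points (adjusted p = 0.726). The shore chr11:48650000-48650999 had 30.2%, 30.5% and 31.2% in nonleukemic double mutants, against 37.8%, 57.0% and 60.2% in Nras G12D (-21.0 points, adjusted p = 1). With each CpG weighted equally this difference was -0.576 points: its 3 CpGs at 841 to 914 bases had 92.2 to 98.7% in nonleukemic double mutants and 88.0 to 100% in Nras G12D, and its 4 CpGs at 58 to 89 bases 0 to 0.560% in nonleukemic double mutants and 0 to 5.62% in Nras G12D. The shore chr8:123064000-123064999 had 3.31%, 2.31% and 4.28% in nonleukemic double mutants, against 6.22%, 32.6% and 17.5% in Tet2 knockout (-15.5 points, adjusted p = 1), and the difference was -8.57 points without Tet2 knockout replicate 2. The shore chr8:42219000-42219999, with 17 CpGs, had 27.6%, 20.9% and 13.4% in nonleukemic double mutants, against 0%, 0.130% and 1.68% in Tet2 knockout. These libraries did not overlap, but the difference of 20.02 points was not called (quasi-binomial test, adjusted p = 0.155). It passed without nonleukemic replicate 3 (adjusted p = 0.0204) and was 6.44 points at a coverage minimum of 20 reads.

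The place of a shore relative to a gene start was compared at equal distance from the island, with no test. Among shores at 2 tiles with a matched start on 1 side, the 188 upstream ones had 49.9% ± 1.92 in leukemic double mutants, 56.1% ± 0.426 in nonleukemic ones, 56.1% ± 0.693 in Tet2 knockout and 54.8% ± 0.513 in Nras G12D. The 224 downstream ones had 61.6% ± 1.41 in leukemic double mutants, 66.1% ± 0.227 in nonleukemic ones, 66.6% ± 0.0857 in Tet2 knockout and 65.2% ± 0.488 in Nras G12D. Next to the island, the 952 upstream shores had 10.6% in leukemic and 12.1% in nonleukemic double mutants, and the 1173 downstream ones 10.2% in leukemic and 11.5% in nonleukemic ones. Called falls of leukemic against nonleukemic double mutants made up 1.05% of the upstream and 1.36% of the downstream shores next to an island, and 6.91% and 6.25% at 2 tiles. Shores with no matched start had 1.08% and 4.33% at the same distances, with 3045 and 832 tiles.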

How the data were processed

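DNA methylation was measured by reduced representation bisulfite sequencing in 12 libraries. MspI fragments of 150 to 400 bp were size-selected, bisulfite-converted and read for 50 bp from 1 end, per the labels' protocols. Bismark and mm9 (NCBIM37) are named per the submitters' processing notes; the Bismark version is not given in the sources used here. The deposited tables give, per the file headers, each cytosine's coverage as a read count, with the percent of those reads that show C and that show T. Methylated and unmethylated reads were recomputed by multiplying these and rounding, and reads with another base, seen at 1.09 to 2.74% of positions, were left out. Both strands of a CpG were summed. CpGs with at least 10 reads in all 12 libraries were kept, and a tile's level is methylated reads over all reads. The 921697 CpGs had a median of 70 to 147 reads per library. No molecular identifiers are named, so PCR copies count as reads and precision from depth covers counting error only.

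Every tile with at least 3 CpGs was fitted with a quasi-binomial model of group over all 12 libraries, with dispersion moderated by limma's squeezeVar method, an F test per contrast and Benjamini-Hochberg adjustment over all 81162 tiles within each of 6 contrasts. The method was tested on simulated data. The named tiles were, per contrast and direction, the called shores with the largest difference (8 falls and 5 rises for leukemic against nonleukemic, 3 and 3 otherwise) among those of 5 or more CpGs without overlap, or the one with the smallest unadjusted p where none was called. The members, the lists and the tests were chosen with earlier results of these data known. Gene names were added after the values were seen: of 31396 autosomal RefSeq promoters of GRCm38.p6 (250 bases before and 50 after the start), 6616 matched the mm9 CpG positions at 1 place on the same chromosome by the spacing of at least 8 CpGs, giving 5949 genes. Alternatives were a coverage minimum of 20, a filter at the 99.9th percentile of coverage, limma on log2((methylated + 1)/(unmethylated + 1)), a fit on the 6 libraries compared, a replicate block, 20 points, the mean of CpG levels, other island limits, and libraries left out. A fit without the library with most CpGs that flip in it alone in each of 3 groups was added after the data were seen, as were differences with each CpG of a tile weighted equally, with no test. The software was limma 3.58.1 in R 4.3.3, and pandas 2.3.3, SciPy 1.17.1 and NumPy 2.4.6 in Python 3.11.15.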

Additional observations from a re-analysis of the deposited data

How the results depend on the processing

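The 6 differences in mean shore level kept their direction in all 66 alternatives. They moved by no more than the larger of the replicate SDs of the groups compared. For nonleukemic minus Tet2 knockout this was the Tet2 knockout SD of 0.355 points, while the nonleukemic SD was 0.0530. With each library left out in turn, leukemic minus nonleukemic ran from -2.24 to -1.73 points, leukemic minus Tet2 knockout from -2.66 to -2.15, leukemic minus Nras G12D from -1.76 to -1.26, nonleukemic minus Nras G12D from 0.382 to 0.611, nonleukemic minus Tet2 knockout from -0.538 to -0.218 and Tet2 knockout minus Nras G12D from 0.692 to 1.03. Counts of called shores were less stable; the main counts were 133 for leukemic against nonleukemic, 262 against Tet2 knockout and 80 against Nras G12D. In that order of comparisons they were 86, 141 and 52 at 20 points, 2, 47 and 0 with limma, 10, 2 and 0 with the 6 libraries compared, and 15, 2 and 10 without the libraries with chromosome Y reads. Without the 3 libraries with most flips they were 211, 205 and 41. With each library left out they ran from 31 to 223, from 136 to 342 and from 11 to 138. The 1 shore called in the nonleukemic double mutant against Nras G12D became 0 with limma, with the 6 libraries, without either set of 3 libraries, with the replicate block, without the leukemic group and with islands under 5%, and was 0 to 1 with each library left out; nonleukemic against Tet2 knockout gave 0 to 1, and Tet2 knockout against Nras G12D gave 0 to 0. Replicate numbers did not pair the libraries, since deviations of same-numbered libraries correlated at -0.0571 to 0.0484; with the replicate block the counts were 105, 223 and 48. A coverage minimum of 20 reads gave 97 falls against the nonleukemic double mutant, 88 of them among the 129. Of the 49 named results, 0 reversed under any alternative; 426 values kept their side of the threshold, 214 fell short of it and 1 passed it newly. The cause of these losses was not tested. Fits with fewer libraries have fewer residual degrees of freedom.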

Other observations

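Island tiles themselves were not free of high values in single libraries. Of the 10806 island tiles, those over 10% in a library numbered 56, 20 and 33 in the leukemic double mutants, 29, 37 and 50 in the nonleukemic ones, 41, 96 and 55 in Tet2 knockout and 24, 12 and 46 in Nras G12D. The groups overlapped, and Tet2 knockout replicate 2, which also has chromosome Y reads, held the most. The island rule used the 9 libraries without leukemia, so it holds their counts down but not the leukemic ones. The 188 shores that lay between 2 island tiles had 7.98% in leukemic double mutants, 8.73% in nonleukemic ones, 9.16% in Tet2 knockout and 8.51% in Nras G12D. By chromosome, shores made up 7.02% of the tested tiles on chromosome 13 and 10.8% on chromosome 19, the lowest and highest shares.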
